A study of Mus musculus with 16 samples.

Results

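The effect of a high-fat diet (HFD) on resting muscle was read by setting 4 HFD-pre libraries against 4 CON-pre libraries, 8 of the 16 RNA sequencing libraries of mouse quadriceps in the series. The genes compared were those whose FPKM (fragments per kilobase of transcript, a level already scaled for gene length and library size) averaged 0.5 or more over the 16 libraries, which were 11256 of the 23970 gene symbols in the deposited table. The 3 symbols just inside this limit had means of 0.5002 (Zfp169), 0.5002 (Fam217b) and 0.5006 (D830031N03Rik), and the 3 just outside had means of 0.4996 (Ftx), 0.4994 (H2-Q9) and 0.4993 (Primpol).

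The mice were male C57BL/6NTac and 16 weeks old. CON mice had been fed a control diet with 10% of kcal from fat for 10 weeks, and HFD mice had received 60% of kcal from fat over the same time. CON-pre and HFD-pre mice never ran to exhaustion. A short session on the treadmill the day before and a fast were common to all 4 groups. CON-post and HFD-post were other mice, sampled 3 h after running to exhaustion, and they enter here only as a second pair of diet groups. The diet itself and the weight gain that such feeding brings cannot be told apart in this model.

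Skeletal muscle burns fatty acids that are taken up from blood or released from lipid droplets in the fibre. They are activated to acyl-CoA, carried into mitochondria by the carnitine shuttle and shortened by beta-oxidation, whereas malonyl-CoA, the first product of fatty acid synthesis, blocks the shuttle. Many genes of fatty acid uptake and oxidation are known targets of PPAR receptors, nuclear receptors that bind fatty acids and attach to DNA with a partner, RXR, at a repeated half-site called DR1.

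The libraries carried the marks of quadriceps: Acta1, skeletal alpha-actin, lay between 13541 and 17378 FPKM, and creatine kinase (Ckm) between 10373 and 14318. The summed FPKM of a library was 305490 to 327559 in CON-pre and 294867 to 303652 in HFD-pre, ranges that did not overlap, and the 10 most abundant genes took 33.8 to 36.5% and 30.7 to 34.3% of it. Correlations of log2 values among these 8 libraries ran from 0.972 to 0.984. The number of reads behind a value is not known from FPKM, so no interval for counting error is given. Groups of 4 mice set the precision of what follows.

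A small set of genes passed the threshold between HFD-pre and CON-pre, which is not a count of all genes that differ. Genes of the carnitine shuttle with its malonyl-CoA control and of beta-oxidation made up 12 of those that rose. The fatty acid synthesis genes Fasn and Acaca were among those that fell. With limma on log2(FPKM + 0.5) and Benjamini-Hochberg adjustment, 39 genes (0.346% of those tested) had an adjusted p under 0.05, hereafter called differentially expressed genes (DEG). Of these, 27 (0.24%) were up-regulated by 1.20- to 5.05-fold and 12 (0.107%) were down-regulated by 1.31- to 3.91-fold, and 11 of the 39 changed by at least 2-fold. The split rested on the fit: with only the 2 groups compared it was 15 up-regulated and 17 down-regulated, and 22 of these 32 were among the 39. With array weights it was 36 and 27, and with the skin keratin score as a covariate 5 and 3. These folds are on the log2(FPKM + 0.5) scale, which understates the change of low genes such as Lep and Chrna2. In all 39 the HFD-pre and CON-pre values did not overlap, which held for 633 (5.62%) of all genes tested, 189 of them higher (1.68%) and 444 lower (3.94%) in HFD-pre. The median log2 fold change over all genes was -0.03, and 39.7% of genes lay above 0. Below the level of DEG the balance depended on scaling: of the 929 genes (8.25%) with an unadjusted p under 0.05, 281 (2.5% of all) were higher and 648 (5.76%) lower. The higher share of 30.25% compares with 41.3% with upper-quartile, 49.6% with median-of-ratios and 50.8% with quantile scaling. The number of DEG fell to 21 without CON-pre replicate 1 or replicate 2 and to 23 without HFD-pre replicate 1, 3 or 4.

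**Figure D1:**
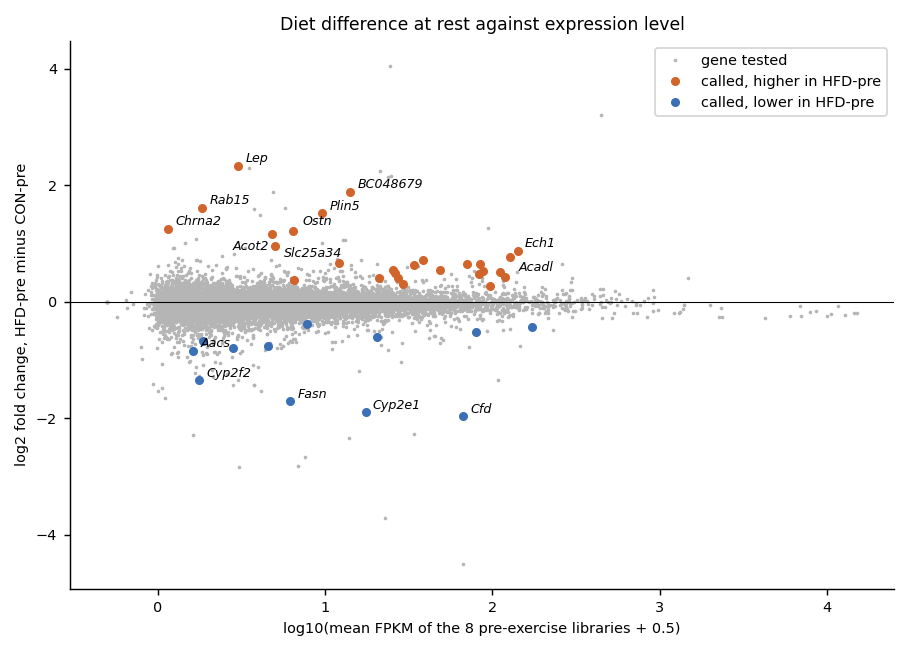
Each point is 1 of the 11256 genes tested, with its mean level over the 8 pre-exercise libraries on the x axis (log10 of mean FPKM + 0.5) and its log2 fold change (HFD-pre minus CON-pre) on the y axis. Filled points are the 27 up-regulated and the 12 down-regulated DEG. Lep, Rab15, Chrna2 and Cyp2f2 are low genes with large changes, Ech1 and Acadl are abundant genes that changed by less than 2-fold, and Cfd is abundant with a large change. Some grey points lie farther from 0 than the DEG and were not called.

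Of 46 gene lists covering metabolism, mitochondria, protein turnover, vessels, contraction and cell type markers, 10 held a DEG and 36 held none. The lists held 22 of the 39 DEG. They were chosen with earlier results of these data known, so their counts describe the genes and give no independent evidence of a direction.

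In the list of the carnitine shuttle and its malonyl-CoA control 4 of 8 tested genes rose, beside 0.24% of all genes, and none fell. The other 4 were not called. All 8 tested members had a higher mean log2 level in HFD-pre, beside 39.7% of all genes. The median log2 fold change was 0.27 beside -0.03 over all genes. Slc25a20, the carrier that swaps acylcarnitine for carnitine across the inner mitochondrial membrane, was 21.9, 28.2, 27.0 and 27.8 FPKM in CON-pre and 43.4, 37.8, 39.3 and 42.5 FPKM in HFD-pre, with log2 fold change 0.63 (SE 0.09, limma adjusted p = 0.00440). Mlycd, malonyl-CoA decarboxylase, which removes the inhibitor of the shuttle, was 18.5, 18.0, 20.7 and 23.2 FPKM in CON-pre and 29.0, 26.5, 31.3 and 31.2 FPKM in HFD-pre, with log2 fold change 0.55 (SE 0.09, limma adjusted p = 0.0138). Both genes were higher in each of the 4 HFD-pre libraries than in any CON-pre library. Cpt2, which rebuilds acyl-CoA inside the mitochondrion, was 22.4, 20.8, 25 and 24.1 FPKM in CON-pre and 32.1, 29.9, 28.8 and 31.5 FPKM in HFD-pre, with log2 fold change 0.40 (SE 0.08, limma adjusted p = 0.0392). Crat, which moves acetyl groups between CoA and carnitine, was 84.4, 86.8, 85.7 and 90.4 FPKM in CON-pre and 106, 108, 101 and 103 FPKM in HFD-pre, with log2 fold change 0.27 (SE 0.05, limma adjusted p = 0.0466). Crat had the smallest change of the 39 DEG, and its groups lay close without overlapping. The smallest difference among the 8 was that of Acacb, the muscle acetyl-CoA carboxylase that makes malonyl-CoA (0.04, adjusted p = 0.934). Slc25a20 was called in all 8 fits that left out 1 library, but Mlycd in 4, Cpt2 in 1 and Crat in 0, with adjusted p reaching 0.0662 with CON-pre replicate 1 left out for Mlycd, 0.157 with CON-pre replicate 1 left out for Cpt2 and 0.189 with CON-pre replicate 1 left out for Crat. With only the 2 groups compared in the fit, Slc25a20 was the 1 call of the 4. The skin keratins Krt5 and Krt14 were above 0 in every CON-pre library and at 0 in every HFD-pre library, and with a keratin score as a covariate, added after the data had been seen, 0 of the 4 were called (Slc25a20 adjusted p = 0.0674).

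Slc25a20 is 1 of 3 DEG whose RefSeq promoter window held a DR1 match, and the 3 windows are shown because DR1 is the site at which PPAR receptors are known to bind. RefSeq promoter windows (build GRCm38.p6) were found for 33 of the 39 DEG and for 8486 of the genes tested, some genes having several windows. DR1 was searched on both strands as AGGTCA, any base, AGGTCA, with at most 2 mismatches in the half-sites. Capitals mark the match. The windows run 5′ to 3′ on the strand of the gene, and lie at chr9:108661886-108662185 (plus strand) for Slc25a20, chr2:103485104-103485403 (minus strand) for Cat and chr5:17835847-17836146 (minus strand) for Cd36.
Slc25a20: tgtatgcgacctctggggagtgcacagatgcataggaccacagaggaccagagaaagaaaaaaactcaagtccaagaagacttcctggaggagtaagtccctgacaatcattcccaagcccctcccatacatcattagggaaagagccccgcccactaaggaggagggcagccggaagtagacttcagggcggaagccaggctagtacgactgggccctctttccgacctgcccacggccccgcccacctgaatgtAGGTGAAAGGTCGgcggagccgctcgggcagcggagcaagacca
Cat: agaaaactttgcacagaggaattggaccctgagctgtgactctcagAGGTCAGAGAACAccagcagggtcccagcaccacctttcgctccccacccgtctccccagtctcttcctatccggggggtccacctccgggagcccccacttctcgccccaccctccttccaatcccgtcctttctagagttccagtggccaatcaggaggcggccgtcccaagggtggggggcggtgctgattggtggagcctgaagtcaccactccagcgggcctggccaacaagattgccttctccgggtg
Cd36: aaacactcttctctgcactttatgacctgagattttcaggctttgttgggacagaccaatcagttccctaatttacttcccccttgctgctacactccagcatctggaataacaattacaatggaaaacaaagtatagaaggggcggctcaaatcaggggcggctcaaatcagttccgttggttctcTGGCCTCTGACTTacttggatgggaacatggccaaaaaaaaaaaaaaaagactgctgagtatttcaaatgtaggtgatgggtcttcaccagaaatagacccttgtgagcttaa
The match began at position 7 from the start site in Slc25a20, at -204 in Cat and, on the opposite strand, at -63 in Cd36, and each had 2 mismatches. It was found in 3 of 27 windows of up-regulated DEG (11.1%), in 0 of 13 windows of down-regulated DEG and in 317 of 10898 windows of all genes tested (2.91%). With at most 1 mismatch none of the 27 windows matched, against 0.413% of all windows. The GC box (GGGCGG), a common promoter element, was in 63% of the windows of up-regulated DEG, 38.5% of those of down-regulated DEG and 62.7% of all windows. The sterol response element, bound by SREBP factors, was in none of the DEG windows and in 1.17% of all. The E-box (CACGTG), which reads the same on both strands, was in 3.7% of the up-regulated, 7.69% of the down-regulated and 10.1% of all windows, and the D-box in none of the DEG windows and 2.03% of all. A match is only a run of letters, and whether any factor was bound was not measured.

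Within mitochondrial beta-oxidation, 8 of 19 tested members were DEG, all up-regulated, beside 0.24% of all genes. A higher mean log2 level in HFD-pre was found for 17, beside 39.7% of all genes. The list's median log2 fold change was 0.34. Of 7 tested acyl-CoA dehydrogenase genes in the list, the family that opens the cycle, 3 rose. Acadl, for long chains, was 88.1, 90.5, 98.1 and 97.4 FPKM in CON-pre and 158, 143, 153 and 187 FPKM in HFD-pre, with log2 fold change 0.77 (SE 0.09, limma adjusted p = 0.00109). Acadvl, for very long chains, was 89.2, 79.8, 101 and 96.9 FPKM in CON-pre and 133, 116, 126 and 146 FPKM in HFD-pre, with log2 fold change 0.51 (SE 0.10, limma adjusted p = 0.0300). Acadm, for medium chains, was 98.1, 102, 103 and 99.4 FPKM in CON-pre and 138, 138, 129 and 139 FPKM in HFD-pre, with log2 fold change 0.43 (SE 0.07, limma adjusted p = 0.0138). In these 3 genes the groups did not overlap, and the spread within CON-pre was narrow in Acadm, with a mean of 101 ± 2.27 FPKM (SD, n = 4). The same list held Hadha, the alpha subunit of the trifunctional protein, at 68.1, 70.8, 75.4 and 71.1 FPKM in CON-pre and 108, 100.4, 96.4 and 109.6 FPKM in HFD-pre, with log2 fold change 0.53 (SE 0.08, limma adjusted p = 0.00837). Acaa2, the thiolase that closes the cycle, was 49.2, 46.7, 62.7 and 60.1 FPKM in CON-pre and 88.8, 77.8, 74.6 and 102 FPKM in HFD-pre, with log2 fold change 0.65 (SE 0.13, limma adjusted p = 0.0355). Acads, for short chains, was not a DEG (0.33, adjusted p = 0.238). The lowest member was Acad9, which also serves complex I assembly, with -0.16 (adjusted p = 0.641).

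Enzymes that deal with the double bonds of unsaturated fatty acids were among the same DEG. Ech1, a dienoyl-CoA isomerase, was 92.3, 92.6, 110.2 and 105 FPKM in CON-pre and 188, 173, 171 and 201 FPKM in HFD-pre, with log2 fold change 0.87 (SE 0.10, limma adjusted p = 0.00109). Its HFD-pre mean of 183 ± 14.1 FPKM (SD, n = 4) stood against 99.9 ± 8.95 in CON-pre, and it shared with Acadl the lowest adjusted p of the comparison. Decr1, the 2,4-dienoyl-CoA reductase, was 25.7, 29.6, 29.2 and 29.7 FPKM in CON-pre and 49.8, 41.8, 42.6 and 55.1 FPKM in HFD-pre, with log2 fold change 0.71 (SE 0.11, limma adjusted p = 0.00655). Eci2, an enoyl-CoA isomerase, was 25.7, 27.5, 24.4 and 25.7 FPKM in CON-pre and 31.4, 33.9, 31.6 and 30.9 FPKM in HFD-pre, with log2 fold change 0.30 (SE 0.06, limma adjusted p = 0.0466). The CON-pre libraries lay below the HFD-pre libraries in all 3, with Decr1 in CON-pre replicate 1 standing apart from its group on the low side. Acadl, Ech1, Decr1 and Hadha were called in every fit that left out 1 library, and Acadm in 5, Acadvl in 3, Acaa2 in 3 and Eci2 in 0 of 8. The highest adjusted p in these fits was 0.0656 with CON-pre replicate 1 left out for Acadm, 0.123 with CON-pre replicate 1 left out for Acadvl, 0.157 with CON-pre replicate 1 left out for Acaa2 and 0.179 with HFD-pre replicate 2 left out for Eci2. Of the 8 calls in beta-oxidation, 5 held with only the 2 groups compared, and Acadl and Ech1 were the 2 that held with the keratin score, where Decr1 had an adjusted p of 0.102 and Hadha of 0.107.

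**Figure D2:**
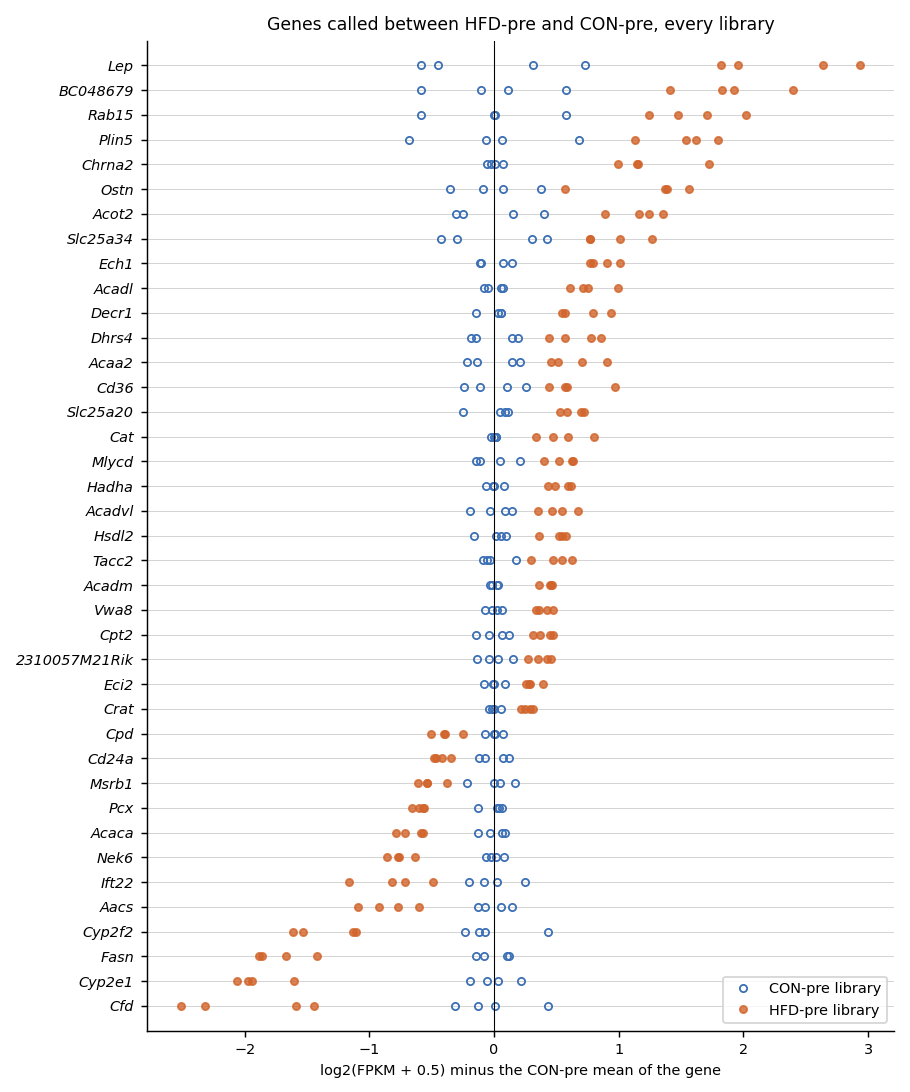
Each row is 1 of the 39 DEG and each point 1 library, with log2(FPKM + 0.5) minus the gene's CON-pre mean on the x axis. Open points are the 4 CON-pre libraries and filled points the 4 HFD-pre libraries. The groups are apart in every row, widely in Lep (log2 fold change 2.34) and Cfd (-1.97) and by little in Crat (0.27).

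Fatty acid uptake, storage in droplets and acyl-CoA hydrolysis each had 1 DEG. Cd36, the fatty acid translocase of the plasma membrane, was 54.8, 59.8, 69.7 and 77.4 FPKM in CON-pre and 97.4, 88.3, 96.4 and 127 FPKM in HFD-pre, with log2 fold change 0.64 (SE 0.12, limma adjusted p = 0.0229), and was 1 of 15 tested genes of uptake and activation. Plin5, a droplet coat protein of oxidative tissues, was 4.13, 2.52, 4.55 and 7.26 FPKM in CON-pre and 14.4, 10.1, 13.6 and 16.3 FPKM in HFD-pre, with log2 fold change 1.52 (SE 0.23, limma adjusted p = 0.00588), and was 1 of 17 genes of lipid droplets and lipolysis. The lowest HFD-pre library of Plin5 was above the highest CON-pre library, although CON-pre itself spread widely. Acot2, a mitochondrial thioesterase that frees fatty acid from acyl-CoA, was 1.89, 1.99, 2.77 and 3.40 FPKM in CON-pre and 6.12, 4.96, 6.48 and 7.05 FPKM in HFD-pre, with log2 fold change 1.16 (SE 0.15, limma adjusted p = 0.00274). Acot2 is the sole DEG of 9 tested thioesterase and uncoupling protein genes, and its value is uncertain to the extent that reads were split with its near-identical copy Acot1 (0.71, adjusted p = 0.272), which is named here after its values were seen. Fabp3, the fatty acid binding protein of muscle cytosol, had 43.0, 35.5, 71.2 and 69.1 FPKM in CON-pre and 128, 89.7, 112 and 200.5 FPKM in HFD-pre, and with 1.27 (SE 0.27, adjusted p = 0.0580) it was not a DEG despite groups that did not overlap. In the fits that left out 1 library Plin5 and Acot2 were called in all 8 and Cd36 in 3, with an adjusted p for Cd36 of up to 0.112 with CON-pre replicate 1 left out. With the keratin score Acot2 was called, but Plin5 (adjusted p = 0.0787) and Cd36 (0.207) were not.

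Peroxisomes, where very long and branched chains are shortened, had 1 DEG in their list of 18 tested members. Catalase (Cat), which breaks down the hydrogen peroxide this yields, was 38.3, 39.5, 39.5 and 39.0 FPKM in CON-pre and 68.4, 49.5, 54.3 and 59.1 FPKM in HFD-pre, with log2 fold change 0.55 (SE 0.11, limma adjusted p = 0.0458). The CON-pre libraries were almost alike and the HFD-pre libraries spread, with HFD-pre replicate 1 the highest. Dhrs4 and Hsdl2, short-chain dehydrogenases of the same organelle that stand in no list, were also up-regulated. The count of 1 thus depends on how the lists were drawn, and Ech1 and Eci2 were counted under mitochondrial beta-oxidation. Dhrs4 had 8.90 ± 1.26 FPKM in CON-pre and 14.4 ± 1.93 in HFD-pre (SD, n = 4), with log2 fold change 0.66 (SE 0.12, limma adjusted p = 0.0234), and Hsdl2 had 21.2 ± 1.66 and 30.2 ± 1.98 FPKM, with log2 fold change 0.50 (SE 0.10, limma adjusted p = 0.0466). Slc25a34, a mitochondrial carrier, was 2.22, 1.99, 3.65 and 3.99 FPKM in CON-pre and 5.21, 5.22, 6.26 and 7.55 FPKM in HFD-pre, with log2 fold change 0.95 (SE 0.18, limma adjusted p = 0.0257). These 4 calls were sensitive to single libraries: Cat was called in 1, Dhrs4 in 3, Hsdl2 in 0 and Slc25a34 in 3 of 8 fits, with the highest adjusted p in the absence of CON-pre replicate 1 for each (0.157, 0.119, 0.192 and 0.123, respectively).

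Among 16 tested genes of fatty acid synthesis 2 fell and none rose. Of the 16, 10 had a lower mean log2 level in HFD-pre, near the 60.3% of all genes that did. At an unadjusted p under 0.05, however, 9 were lower and 0 higher, beside 5.76% and 2.5% of all genes. The groups were apart with HFD-pre lower in 7 and higher in 0, beside 3.94% and 1.68% of all genes. The median log2 fold change was -0.38 at rest, but after exercise it was 0.06 with 10 of the 16 higher in HFD-post and 0 called. Acaca, the acetyl-CoA carboxylase of the cytosol that commits carbon to fat, was 1.93, 1.59, 1.89 and 1.73 FPKM in CON-pre and 1.04, 0.819, 1.01 and 0.886 FPKM in HFD-pre, with log2 fold change -0.67 (SE 0.11, limma adjusted p = 0.00837). Fatty acid synthase (Fasn), which uses its product, was 9.78, 9.67, 8.02 and 8.43 FPKM in CON-pre and 3.03, 2.46, 2.09 and 2.06 FPKM in HFD-pre, with log2 fold change -1.71 (SE 0.24, limma adjusted p = 0.00440). In both, the highest HFD-pre library stood well below the lowest CON-pre library. Slc25a1, which exports the citrate that supplies cytosolic acetyl-CoA, is named here after its values were seen and was not a DEG, with 4.09, 4.36, 4.17 and 5.48 FPKM in CON-pre and 2.45, 2.11, 0.876 and 2.35 FPKM in HFD-pre (-1.09, adjusted p = 0.0849). At the other end of the list, the desaturase Fads3 had 0.19 (adjusted p = 0.911).

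Aacs and Pcx, 1 enzyme that uses a ketone body and 1 that uses pyruvate, were also among the genes that fell. Aacs, which turns the ketone body acetoacetate into acetoacetyl-CoA in the cytosol for lipid synthesis, was 1.40, 1.66, 1.80 and 1.48 FPKM in CON-pre and 0.719, 0.598, 0.475 and 0.873 FPKM in HFD-pre, with log2 fold change -0.85 (SE 0.15, limma adjusted p = 0.0138). Its list of 8 ketone body genes had no other DEG, and 5 of the 8 had a higher mean log2 level in HFD-pre. Pyruvate carboxylase (Pcx), which makes oxaloacetate from pyruvate, was 25.3, 22.1, 24.8 and 24.6 FPKM in CON-pre and 16.2, 16.1, 15.1 and 15.8 FPKM in HFD-pre, with log2 fold change -0.60 (SE 0.10, limma adjusted p = 0.0138). The 4 HFD-pre values of Pcx lay within a narrow range under all CON-pre values. Acaca and Fasn were called in every fit that left out 1 library, Aacs in 4 and Pcx in 6 of 8, with adjusted p reaching 0.0609 with CON-pre replicate 2 left out for Aacs and 0.0632 with CON-pre replicate 1 left out for Pcx. With the keratin score none of the 4 was called (adjusted p = 0.107 for Acaca, 0.0696 for Fasn, 0.107 for Aacs and 0.129 for Pcx). Cholesterol synthesis, the sister route, held 0 DEG among 19 tested genes by limma, with a median of -0.11. There 5 had an unadjusted p under 0.05, all lower, beside 5.76% of all genes. Glycerolipid and phospholipid synthesis held 0 DEG among 25, with 1 gene at an unadjusted p under 0.05.

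**Figure D3:**
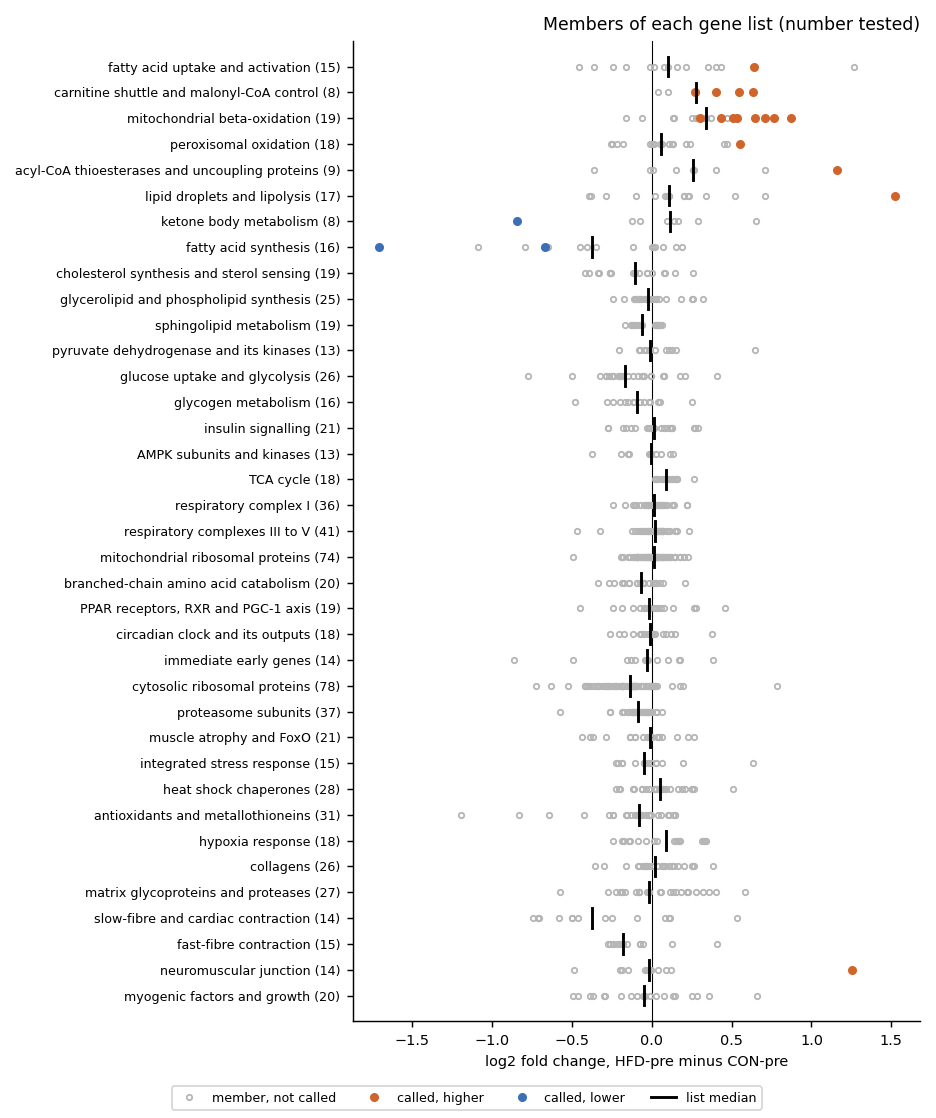
Each row is 1 gene list other than the cell type markers, with the number of tested members in brackets, and each point 1 member at its log2 fold change (HFD-pre minus CON-pre) on the x axis. Filled points are DEG and the black bar is the list median. Filled points above 0 gather in beta-oxidation (8 of 19) and the carnitine shuttle (4 of 8), with 1 each in the uptake, droplet, thioesterase, peroxisome and neuromuscular lists, and those under 0 belong to fatty acid synthesis and ketone body metabolism.

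The lists of the TCA cycle, the respiratory complexes, glucose uptake and glycolysis, and glycogen metabolism held no DEG. All 18 tested genes of the TCA cycle had a higher mean log2 level in HFD-pre, beside 39.7% of all genes, with a median of 0.09. By limma 0 were called and 2 had an unadjusted p under 0.05, beside 2.5% of all genes higher at that threshold. Idh2 had the largest difference (0.26, adjusted p = 0.853). Complex I (36 tested) and complexes III to V (41 tested) had 0 DEG and 0 genes at an unadjusted p under 0.05, with medians of 0.01 and 0.02. In glucose uptake and glycolysis 20 of 26 tested genes were lower, beside 60.3% of all genes. Of these, 9 had an unadjusted p under 0.05, beside 5.76% of all genes, and 0 were DEG. The median of -0.17 was -0.09 after quantile scaling. Glycogen metabolism had 0 DEG among 16 and a median of -0.09, which was -0.03 after quantile scaling. Pdk4, the kinase that restrains entry of pyruvate into mitochondria, was 146, 159, 234 and 288 FPKM in CON-pre and 240.4, 335, 386 and 302 FPKM in HFD-pre, so its groups overlapped (0.65, adjusted p = 0.346). Among receptors and coactivators of the PPAR axis, 0 of 19 were DEG and the median of -0.02 turned positive with each of the 3 other scalings. The lowest of them, the coactivator Ppargc1a, was 6.28, 6.57, 6.42 and 7.11 FPKM in CON-pre and 4.90, 4.87, 4.84 and 4.18 FPKM in HFD-pre, with groups apart but no call (-0.45, adjusted p = 0.520).

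Ribosomal and proteasome genes held no DEG. Of 78 tested cytosolic ribosomal protein genes 67 lay lower in HFD-pre (median -0.13), and 5 of these reached an unadjusted p under 0.05, beside 60.3% and 5.76% of all genes. Of 37 proteasome subunits 33 were lower, with a median of -0.08 and 1 at an unadjusted p under 0.05. Both medians kept their sign with each of the 3 other scalings. In the second pair of diet groups, after exercise, the same medians were 0.02 for each list. Mitochondrial ribosomal proteins (74 tested) had a median of 0.02 at rest, also without a DEG.

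The DEG that code for secreted signals and surface receptors differed in direction. Leptin (Lep), the satiety hormone of fat cells, was 0.190, 0.672, 0.127 and 1.07 FPKM in CON-pre and 6.74, 2.83, 3.16 and 5.38 FPKM in HFD-pre, with log2 fold change 2.34 (SE 0.41, limma adjusted p = 0.0138). Adipsin (Cfd), a protease of the complement pathway secreted by fat cells, was 104, 83.1, 94.5 and 139.8 FPKM in CON-pre and 17.7, 34.1, 37.5 and 20.3 FPKM in HFD-pre, with log2 fold change -1.97 (SE 0.27, limma adjusted p = 0.00440). Both sets of 4 were apart, and Cfd remained a DEG in all 8 fits that left out 1 library, Lep in 4 (adjusted p reaching 0.0782 with HFD-pre replicate 1 left out). With the keratin score Cfd was called and Lep was not (adjusted p = 0.131). Musclin (Ostn), a peptide released by muscle, was 2.44, 4.37, 3.44 and 3.03 FPKM in CON-pre and 9.22, 10.6, 5.06 and 9.34 FPKM in HFD-pre, with log2 fold change 1.22 (SE 0.20, limma adjusted p = 0.0107). The HFD-pre range of Ostn was wide, with replicate 3 only a little above the highest CON-pre library. Chrna2, a nicotinic acetylcholine receptor subunit, was 0.146, 0.206, 0.176 and 0.159 FPKM in CON-pre and 1.71, 0.840, 0.992 and 0.989 FPKM in HFD-pre, with log2 fold change 1.25 (SE 0.20, limma adjusted p = 0.0107). It was near the floor in every CON-pre library. Its means of 0.172 FPKM in CON-pre and 0.415 in CON-post lay under the 0.5 FPKM limit. It entered the test only through HFD-pre (1.13) and HFD-post (1.56), so its call is not independent of the filter. Chrna2 was the sole DEG of 14 tested neuromuscular junction genes, whose median of -0.02 turned positive with 2 of the 3 other scalings. The lowest member of that list was Musk, the kinase that organises the synapse, at 3.75, 4.56, 4.07 and 4.81 FPKM in CON-pre and 2.47, 2.87, 3.11 and 3.23 FPKM in HFD-pre (-0.49, adjusted p = 0.127). Cd24a, a surface glycoprotein, fell from 197 ± 15.7 to 146 ± 6.15 FPKM (SD, n = 4), with log2 fold change -0.43 (SE 0.09, limma adjusted p = 0.0466), and was called in 1 of the 8 fits (adjusted p reaching 0.162 with CON-pre replicate 3 left out).

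Further DEG stand in no list. BC048679, a gene without a known role, was 4.91, 3.37, 8.15 and 5.77 FPKM in CON-pre and 21.5, 14.9, 20.1 and 30.1 FPKM in HFD-pre, with log2 fold change 1.89 (SE 0.24, limma adjusted p = 0.00231). Rab15, a small GTPase of endosomes, was 0.397, 0.0937, 0.832 and 0.392 FPKM in CON-pre and 3.12, 1.61, 1.97 and 2.41 FPKM in HFD-pre, with log2 fold change 1.61 (SE 0.23, limma adjusted p = 0.00440). Each was several-fold higher in HFD-pre, and Rab15 was at the low end of detection in CON-pre. Tacc2, a centrosome-associated coiled-coil protein, was 65.8, 66.8, 64.5 and 77.5 FPKM in CON-pre and 84.2, 100.3, 106 and 95.1 FPKM in HFD-pre, with log2 fold change 0.48 (SE 0.08, limma adjusted p = 0.0127). Vwa8, a mitochondrial ATPase, rose from 17.5 ± 0.748 to 23.3 ± 1.03 FPKM (SD, n = 4, log2 fold change 0.40, limma adjusted p = 0.0107), and 2310057M21Rik from 5.21 ± 0.477 to 6.90 ± 0.426 FPKM (log2 fold change 0.38, limma adjusted p = 0.0387). BC048679, Rab15 and Vwa8 were called in all 8 fits that left out 1 library, Tacc2 in 5 (adjusted p reaching 0.0609 with CON-pre replicate 1 left out) and 2310057M21Rik in 2 (up to 0.145 with CON-pre replicate 3 left out). With the keratin score BC048679 and Tacc2 were called, but Rab15 (adjusted p = 0.0787) and Vwa8 (0.126) were not.

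The remaining down-regulated genes had varied roles. Cyp2e1, a cytochrome P450 that oxidises ethanol, acetone and fatty acids, was 25.9, 27.5, 23.5 and 31.4 FPKM in CON-pre and 6.64, 6.09, 6.47 and 8.52 FPKM in HFD-pre, with log2 fold change -1.90 (SE 0.29, limma adjusted p = 0.00688). Cyp2f2, another cytochrome P450, was 1.79, 1.86, 1.62 and 2.86 FPKM in CON-pre and 0.659, 0.314, 0.363 and 0.636 FPKM in HFD-pre, with log2 fold change -1.34 (SE 0.23, limma adjusted p = 0.0138). Both P450 genes had their 4 HFD-pre libraries far under CON-pre. Nek6, a mitotic kinase, was 5.30, 5.59, 5.15 and 4.99 FPKM in CON-pre and 3.20, 2.87, 2.90 and 2.68 FPKM in HFD-pre, with log2 fold change -0.76 (SE 0.12, limma adjusted p = 0.00780). Ift22, a part of the intraflagellar transport complex, was 2.58, 3.09, 2.84 and 3.70 FPKM in CON-pre and 1.5, 1.08, 1.65 and 2.02 FPKM in HFD-pre, with log2 fold change -0.80 (SE 0.15, limma adjusted p = 0.0300). Msrb1, a selenoprotein that repairs oxidised methionine, was 93.6, 96.6, 105 and 80.2 FPKM in CON-pre and 64.2, 61.1, 71.9 and 64.4 FPKM in HFD-pre, with log2 fold change -0.51 (SE 0.09, limma adjusted p = 0.0138). Nek6 was tight within both groups, whereas HFD-pre replicate 4 of Ift22 came close to the lowest CON-pre library. Cpd, a carboxypeptidase of the Golgi, fell from 8.39 ± 0.358 to 6.30 ± 0.509 FPKM (SD, n = 4, log2 fold change -0.39, limma adjusted p = 0.0466). Cyp2e1 and Nek6 were called in every fit that left out 1 library, Cyp2f2 in 5 (adjusted p reaching 0.0578 with HFD-pre replicate 2 left out), Ift22 in 2 (up to 0.111 with HFD-pre replicate 1 left out), Msrb1 in 2 (up to 0.0626 with CON-pre replicate 2 left out) and Cpd in 1 (up to 0.157 with CON-pre replicate 1 left out). With the keratin score Cyp2e1 and Cyp2f2 were called, but Nek6 (adjusted p = 0.107) was not.

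Lep, Cfd and several lipid genes are also genes of fat cells, so markers of other cells were read in the same libraries. Of 10 tested adipocyte markers, Lep and Cfd were the only DEG. The 11 markers in the deposited table summed to 383 to 494 FPKM in CON-pre and 339 to 435.5 FPKM in HFD-pre. These sums include Cfd, with means of 105 FPKM in CON-pre and 27.4 FPKM in HFD-pre. The adipokine Adipoq, a defining marker, was 17.2, 17.6, 13.7 and 21.1 FPKM in CON-pre and 22.3, 17.3, 15.4 and 18.3 FPKM in HFD-pre, and the droplet protein Plin1 was 3.67, 3.22, 3.28 and 5.79 FPKM in CON-pre and 3.50, 2.99, 4.36 and 3.62 FPKM in HFD-pre. Both overlapped between the diets (0.07 and -0.10 on the log2 scale, adjusted p = 0.984 and 0.964), and no tested adipocyte marker was at 0 in any of the 8 libraries. In bulk muscle, fewer cells of a type and less RNA per cell cannot be told apart.

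Contraction genes showed how far these pieces of quadriceps varied. Slow-fibre and cardiac genes (14 tested, 0 DEG, median -0.38) summed to 477 to 934 FPKM in CON-pre and 475 to 746 FPKM in HFD-pre. Their hallmark Myh7, the slow myosin heavy chain, was 12.5, 33.4, 39.7 and 58.1 FPKM in CON-pre and 11.2, 18.2, 35.7 and 17.7 FPKM in HFD-pre, with replicate 1 the lowest in each group (-0.71, SE 0.54, adjusted p = 0.806). Fast-fibre genes had 13 of 15 members lower, beside 60.3% of all genes, and 0 DEG. Their median of -0.18 shrank to -0.03 after quantile scaling. With the slow-fibre score as a covariate, an alternative added after the data had been seen, 62 genes were called, and 37 of the 39 DEG were among them.

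The keratins Krt14 and Krt5 of skin did not overlap between the diets at rest but were not called. Krt14 was listed at 3.01, 2.72, 0.465 and 2.73 FPKM in CON-pre and at 0 in all 4 HFD-pre libraries, and Krt5 at 1.26, 0.758, 0.391 and 1.10 FPKM in CON-pre and at 0 in all 4 HFD-pre libraries. The 4 skin markers summed to 1.77 to 4.71 FPKM in CON-pre and 0.0627 to 0.455 FPKM in HFD-pre, and Krt10 overlapped (-0.10, adjusted p = 0.989). None of the 3 tested was a DEG. With a skin keratin score as a covariate, also added after the data had been seen, 8 genes were called, all of them among the 39: BC048679, Acot2, Ech1, Acadl, Tacc2, Cyp2f2, Cyp2e1 and Cfd. The 39 log2 fold changes in that fit were 0.774 to 1.25 times those without the covariate (median 0.92), and their median SE was 0.122 against 0.108. After exercise the covariate left the number of calls at 17, of which 15 were shared. Because the score itself differed between HFD-pre and CON-pre, diet and keratin level cannot be told apart at rest. Summed levels of the other cell types, taken over every marker in the deposited table, overlapped. Macrophage markers (7 tested) were 77.7 to 135 FPKM in CON-pre and 71.35 to 92.4 in HFD-pre. Endothelial markers (5 tested) were 42.3 to 54.9 and 46.8 to 58.9, and nerve markers (5 tested) 28.1 to 35.3 and 31.1 to 37.7. Tendon markers (6 summed, 5 tested) were 84.8 to 184 and 93.3 to 193. Liver markers (6 summed, 4 tested) were 0.346 to 25.3 and 0.300 to 27.4. Blood markers (4 tested) were 336 to 699 and 226.5 to 415.5 FPKM. No member of these 6 lists was a DEG.

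**Figure D4:**
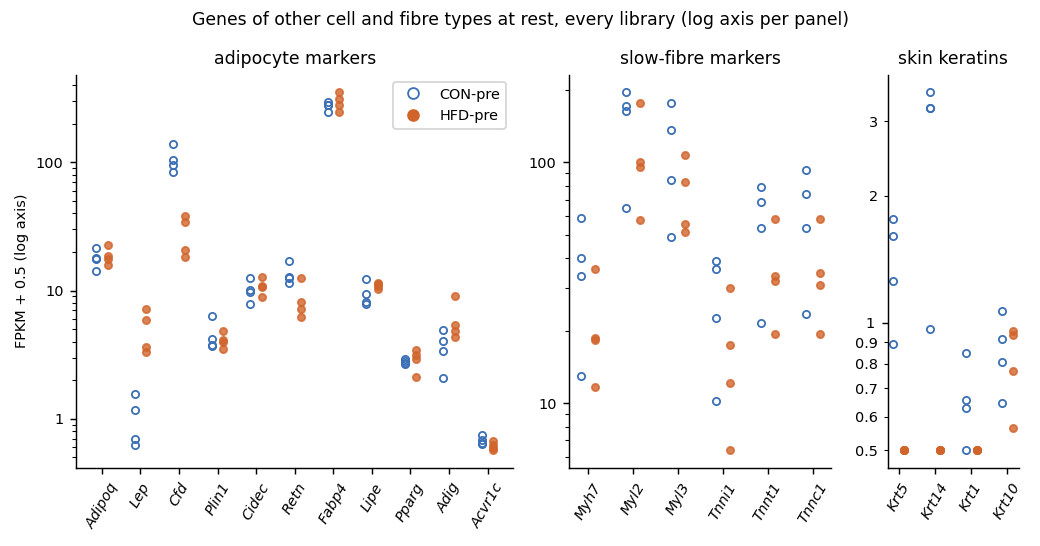
FPKM + 0.5 on a log axis is plotted for adipocyte markers, slow-fibre markers and skin keratins (x axis, 1 gene per position), with open points for the 4 CON-pre and filled points for the 4 HFD-pre libraries. Lep and Cfd separate the diets while Adipoq, Plin1 and Cidec overlap, the slow-fibre genes spread widely within each diet, and Krt5 and Krt14 are at 0 FPKM (plotted at 0.5) in every HFD-pre library.

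The diet difference was next read in other mice, HFD-post against CON-post, which share no library with the comparison at rest, though both use the spread of the same fit. There, 17 genes (0.151%) were called, 14 up-regulated (0.124%) and 3 down-regulated (0.0267%). With only the 2 groups compared there were 2 calls, so the 17, and those shared with the comparison at rest, rest on the fit of all 4 groups. With the slow-fibre score as a covariate there were 28. Of the 39 DEG at rest, 38 had the same sign after exercise (97.4%, against 58.7% of all genes tested), 34 of them at an unadjusted p under 0.05, a threshold that 6.29% of all genes passed (3.12% higher and 3.17% lower in HFD-post). In 29 the post libraries of the diets did not overlap in the same direction, while 1.88% of all genes were apart with HFD-post higher and 1.28% with it lower, 3.16% together. DEG in both were 11, which is 28.2% of those at rest and 64.7% of those after exercise: Acadl, Acadm, BC048679, Cfd, Chrna2, Cpt2, Decr1, Ech1, Lep, Slc25a20 and Vwa8. Of these, Chrna2 had passed the limit of 0.5 FPKM only through the HFD groups. Lep was 0.568, 0.433, 0.569 and 0.957 FPKM in CON-post and 3.14, 7.77, 5.18 and 17.8 FPKM in HFD-post (log2 fold change 2.74, SE 0.41, limma adjusted p = 0.00893). Ech1 was 115, 101, 126 and 117 FPKM in CON-post and 241, 188, 173 and 211 FPKM in HFD-post (0.82, SE 0.10, adjusted p = 0.00172). Cfd was 71.5, 132, 112 and 141 FPKM in CON-post and 23.4, 35.0, 47.0 and 46.5 FPKM in HFD-post (-1.58, SE 0.27, adjusted p = 0.0253). In these 3 genes the diets were apart in the exercised mice in the direction seen at rest.

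The median absolute log2 fold change of the 39 DEG was 0.66 at rest and 0.45 after exercise, and 34 were smaller after exercise. The 39 had been chosen on their values at rest. The interaction of diet and exercise, which tests the change of the diet difference itself, gave 0 DEG by limma (smallest adjusted p = 0.926), with 356 genes (3.16%) at an unadjusted p under 0.05, among them 8 of the 39. Tacc2, the gene of opposite sign, was 134, 128, 118 and 122 FPKM in CON-post and 107, 124, 125 and 114 FPKM in HFD-post (log2 fold change -0.10), and its interaction was -0.58 (SE 0.12, limma adjusted p = 0.926). Acot2 was 6.53, 7.97, 8.63 and 7.25 FPKM in CON-post and 9.54, 8.69, 9.43 and 7.03 FPKM in HFD-post (0.18), with an interaction of -0.98 (SE 0.22, adjusted p = 0.926). For both, the diets overlapped after exercise, but the difference from rest did not pass adjustment. Fasn was -1.03 (adjusted p = 0.151), Plin5 0.89 (0.193), Cyp2e1 -1.38 (0.0825) and Cd36 0.45 (0.218) on the log2 scale after exercise, all with the sign they had at rest.

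**Figure D5:**
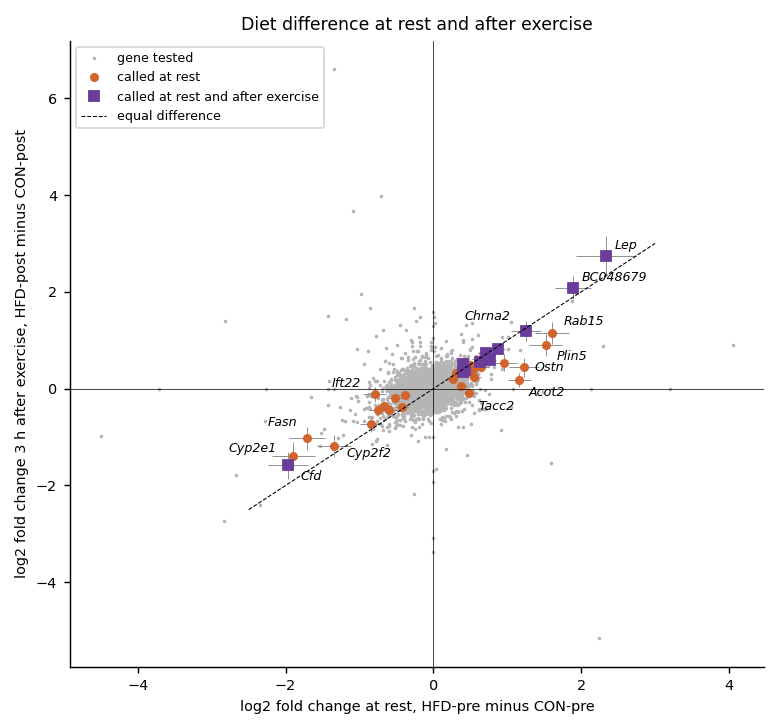
Each point is 1 gene, with the log2 fold change at rest (HFD-pre minus CON-pre) on the x axis and that 3 h after exercise (HFD-post minus CON-post, other mice) on the y axis. Coloured points are the 39 DEG with bars of 1 SE, squares are the 11 called in both, and the dashed line marks equal differences. All coloured points but Tacc2 lie in the quadrants of equal sign.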

How the data were processed

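Quadriceps RNA of 16 mice in 4 groups of 4, each a separate sample in the labels, was sequenced. According to the Methods and the labels, the authors aligned reads of strand-specific mRNA libraries to mm9 with TopHat and obtained expression from Cufflinks. The values they deposited are FPKM, already relative to length and library size and without depth, so no count model was used. The 27 entries whose names had become dates (0.0771% of all FPKM) were left out, the 260 symbols found in several entries were summed, and 0 columns of sample values were left unused. Estimates can be split between near-identical genes. Whether the p-values measure more than the spread between these samples depends on the mice being independent, as the labels and Methods describe them.

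Genes averaging 0.5 FPKM or more were tested with limma 3.58.1 in R 4.3.3 on log2(FPKM + 0.5), using a mean-variance trend and empirical Bayes moderation, all 4 groups in 1 fit, with Benjamini-Hochberg adjustment over 11256 genes and a threshold of 0.05. The contrasts were HFD-pre minus CON-pre, HFD-post minus CON-post and their interaction. In simulated data for HFD-pre against CON-pre on 11256 genes, 98 of 100 genes changed by 1 and 62 of 100 changed by 0.5 on the log2 scale were called, beside 6 unchanged genes. The changed genes were drawn only from better expressed genes, and the noise was normal and independent between genes. These shares therefore do not hold for low genes such as Lep and Chrna2, which were not tried. Gene lists were described by counts and medians, with no list test. RefSeq promoter windows of GRCm38.p6 were searched for motifs on both strands; only these windows carry coordinates, which are of that build and not of mm9. Tables used Python 3.11.15 with pandas 2.3.3 and numpy 2.4.6, and figures matplotlib 3.10.9.

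All DEG could be named, with the value of every library for the 10 largest rises, the 10 largest falls and called list members, and from each list the largest rise and fall. The members and lists were chosen with earlier results of these data known. The comparisons at rest and after exercise were repeated with 22 alternatives (pseudocount, filter, scaling, groups fitted, trend, array weights, replicate block, symbols left out, 8 fits each without 1 library and 2 marker covariates) and at an adjusted p under 0.1, and the interaction with all of these but the fit of only 2 groups. Metabolomics and qPCR are not analysed here.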

Additional observations from a re-analysis of the deposited data

Results flagged for a closer look

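Among the 39 DEG, each group of 4 libraries at rest was examined for 1 library far from the others, 78 groups in all. In 2 of them the gap between the extreme library and its nearest neighbour, divided by the range of the group, exceeded Dixon's critical value for groups of this size, where chance gives about 1 group in 20. Decr1 in CON-pre replicate 1 was 25.7 FPKM while the other CON-pre libraries lay between 29.2 and 29.7 (gap over range 0.89). Acadm in HFD-pre replicate 3 was 129.4 FPKM while the other HFD-pre libraries lay between 137.8 and 138.8 (gap over range 0.897). Over the 8 fits that left out 1 library, the adjusted p of Decr1 was at most 0.0381, and that of Acadm was at most 0.0656 with CON-pre replicate 1 left out.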

How the results depend on the processing

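The DEG kept their sign in all 22 alternatives, or in 21 for Chrna2, which was under the 1 FPKM filter, and 6 were called in every one (BC048679, Acot2, Ech1, Acadl, Cyp2e1 and Cfd). Calls were fewer or more under several settings, and the cause was not tested. Fitting only the 2 groups compared gave 32 calls at rest, 15 up-regulated and 17 down-regulated, of which 22 were among the 39, and 2 after exercise. Array weights gave 63 calls, 27 of them down-regulated. An adjusted p under 0.1 gave 62 calls, 27 down-regulated, and 30 after exercise. With the slow-fibre score, added after the data were seen, there were 62 calls, 29 down-regulated, and 28 after exercise. With the skin keratin score, added likewise, there were 8, of which 5 up-regulated and 3 down-regulated, with log2 fold changes 0.774 to 1.25 times as large, and 17 after exercise. Leaving out 1 library gave 21 to 36 calls, 13 to 25 up-regulated and 6 to 11 down-regulated, and between 9 (CON-pre replicate 4) and 18 (CON-pre replicate 1 or 2, HFD-pre replicate 3) of the 39 calls were lost.

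The 4 calls of the carnitine shuttle were 1 with only the 2 groups compared, 2 without the mean-variance trend, 2 with the replicate block, 0 with the keratin score and 1 to 3 without 1 library. The 8 calls of beta-oxidation were 5 with only the 2 groups compared, 5 without the trend, 2 with the keratin score and 4 to 7 without 1 library. The 2 calls of fatty acid synthesis were 4 with array weights, 4 at an adjusted p under 0.1 and 0 with the keratin score. The 2 adipocyte calls were 1 with the keratin score and 1 to 2 without 1 library.

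List medians moved by more than the replicate spread in a few cases. With quantile scaling they were 0.0292 for sphingolipid metabolism, -0.0932 for glycolysis, -0.0265 for glycogen (-0.0531 with median-of-ratios), -0.0321 for fast-fibre genes and 0 for skeletal muscle markers. For skin markers the median was -3.19 with a pseudocount of 0.1, -0.89 with 1 and -2.29 with a mean of at least 1 FPKM. Without 1 library medians ran from -0.194 to -0.0664 for cholesterol synthesis, -0.108 to -0.0567 for glycogen, 0.0011 to 0.113 for hypoxia response, -0.00064 to 0.069 for insulin signalling and -0.179 to -0.109 for skeletal muscle markers. Medians of 10 lists changed sign with a scaling. DR1 with at most 1 mismatch, a setting chosen after the data were seen, was in 0 of the 27 windows.

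Whether the replicate numbers in the labels pair the samples is not known. Deviations from the group means correlated between same-numbered CON-pre and HFD-pre libraries at 0.213, 0.136, -0.22 and 0.0509. Not every library correlated best with its own number, but such correlations cannot decide whether a number marks a shared batch. A replicate block gave 32 calls, 22 up-regulated and 10 down-regulated, of which 29 were among the 39. Depth is not known from FPKM, so which low genes it limits cannot be given.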

Other observations

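After exercise 6 genes were called between the diets that were not called at rest, and all 6, named here after their values were seen, had the same sign at rest. Npr3, the clearance receptor of natriuretic peptides, was 0.926, 0.959, 0.732 and 0.939 FPKM in CON-post and 2.32, 2.91, 3.00 and 4.24 FPKM in HFD-post (log2 fold change 1.36, SE 0.16, limma adjusted p = 0.000968), against 0.695, 1.05, 0.786 and 1.14 FPKM in CON-pre and 1.84, 1.14, 1.52 and 1.62 FPKM in HFD-pre (0.52, adjusted p = 0.265). The diets were apart in both states, though barely at rest, and the interaction was 0.84 (SE 0.22, limma unadjusted p = 0.0015, adjusted p = 1.00). Ephx2, an epoxide hydrolase of fatty acid epoxides, had 0.63 at rest (adjusted p = 0.0580) and 0.74 after exercise (0.0350). Retsat, retinol saturase, had 0.43 (0.131) and 0.63 (0.0244), and Dbi, the acyl-CoA binding protein, 0.34 (0.134) and 0.51 (0.0236). Musk, the synaptic kinase, had -0.49 (0.127) and -0.65 (0.0422), and the kinase Pak1 -0.52 (0.0890) and -0.68 (0.0253).

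Other list members, not called at rest, are given by their values. Mt2, a metallothionein that binds zinc, was 33.1, 21.7, 23.9 and 9.33 FPKM in CON-pre and 6.65, 8.63, 13.1 and 6.89 FPKM in HFD-pre (-1.19, adjusted p = 0.376). Hba-a2, an alpha-globin gene, was 0.0486, 69.6, 0.0450 and 0.0450 FPKM in CON-pre and 31.8, 34.8, 31.8 and 22.9 FPKM in HFD-pre (4.05, adjusted p = 0.567), beside its near-identical copy Hba-a1 at 227, 156, 485 and 237 and 248, 130.5, 162 and 198 FPKM, so the split of reads between the copies is uncertain. Epas1, a hypoxia-inducible factor, was 23.5, 23.5, 22.2 and 24.2 FPKM in CON-pre and 32.0, 29.9, 27.8 and 29.1 FPKM in HFD-pre, apart but not called (0.34, adjusted p = 0.0861). Krt14 was 9.98, 0.450, 0 and 0.0625 FPKM in CON-post and 0, 0, 2.92 and 0 FPKM in HFD-post, so in the exercised mice its level did not separate the diets.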
